A study of Rattus norvegicus with 24 samples.

Results

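Transcripts of 7 genes of neutrophil attraction and neutrophil products were followed in rat lung: the chemokines Cxcl1, Cxcl2 and Cxcl6, their receptor Cxcr2, the calprotectin subunits S100a8 and S100a9, and lipocalin 2 (Lcn2). The genes were chosen by name, with earlier results of these data known. They are 7 of the 30043 genes counted, and all 7 passed the filter on low counts that left 13322 genes for testing.

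Lung tissue came from male Fischer 344 rats (F344/DuCrl), 3 months old when purchased, with 6 animals in each of 4 groups and all exposures by whole-body inhalation. Air controls breathed air for 29 weeks. Silica rats breathed crystalline silica dust (Min-U-Sil5) at 15 mg/m3 for 6 h a day on 5 days of week 3, and air in the other weeks. Smoke rats breathed cigarette smoke at 40 mg/m3 in week 1 and at 80 mg/m3 later, 3 h a day on Tuesdays and Fridays, with air in week 3. Combined rats had smoke at 45 mg/m3 in week 1, silica in week 3 in place of smoke, and smoke at 80 mg/m3 afterwards. A piece of whole lung from 1 inbred strain and 1 sex was sequenced, so fewer cells of a type and less RNA per cell cannot be told apart in any value given here.

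Cxcl1, Cxcl2 and Cxcl6 belong to the CXC chemokines that carry a glutamate-leucine-arginine motif before the first cysteines and attract neutrophils by binding Cxcr2. In lung they are made by epithelial cells, macrophages and stromal cells after stimulation by interleukin 1, tumour necrosis factor or interleukin 17, in large part through the transcription factor NF-kB. S100a8 and S100a9 pair to form calprotectin, which binds calcium, zinc and manganese, fills the cytoplasm of neutrophils and is also present in monocytes. Lcn2 captures iron-carrying bacterial siderophores and is made both by neutrophil precursors and by airway epithelium.

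Library quality bears on every value. Smoke 2 held 21629 counts in all and air 6 the most at 4687805 (median 2335358), and 22 of 24 libraries held at least 1000000. In smoke 2 the haemoglobin genes Hbb, Hba1 and Hbb-b1 took 46.3% of counts against 0.201% to 1.30% elsewhere, and 3 counts there equal 139 CPM (counts per 1000000 of a library's own total), so its values are left out of the smoke ranges below. Smoke 2 stays in the tests unless stated otherwise. Silica 4 held 280484 counts, where 3 counts equal 10.7 CPM. It gives the highest silica values of Cxcl1, Cxcl6 and Cxcr2 below, from 24, 12 and 10 counts. The elastase gene Mmp12 stood at 3.26 CPM in the library labelled silica 1 and at 57.0 CPM or more in the rest of its group. In the library labelled smoke 1 it stood at 57.9 CPM, against 11.9 CPM or less in the rest of that group. On Mmp12 each of these libraries stands against its label, as it does on Cxcl6, S100a8 and S100a9 below. Whether the labels of silica 1 and smoke 1 were exchanged was not tested, and an exchange would change what the silica and smoke values stand for. No label was changed. Results are also given from a fit of 21 libraries without silica 1, smoke 1 and smoke 2, a choice made with these data known. Of the lung markers, all 14 were tested, and surfactant protein gene Sftpc had group medians of 5915 to 7307 CPM. They moved with the combined group: 3 rose against air, the surfactant genes Sftpa1 (1.19) and Sftpd (1.19) and the lamellar body gene Lamp3 (0.98), and 5 fell, the endothelial and alveolar type 1 genes Cldn5, Pdpn, Cdh5, Pecam1 and Hopx. In the silica group 1 of the 14 rose and none fell, and in the fit of 21 libraries 3 rose and 3 fell. Their summed level was 18215 to 25597 CPM in air, 18827 to 30098 CPM in silica, 20159 to 25533 CPM in smoke and 27951 to 32210.1 CPM in combined, which does not overlap air, and its part in the members' values was not tested.

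The promoters are shown for the 3 chemokine genes because these lie in 1 cluster on chromosome 14, carry the same kind of short motifs near their starts, and are the ligands the results turn on. Each line gives the 110 bases before the annotated start from RefSeq (GRCr8, minus strand in all 3), 5′ to 3′. Capitals mark every GGGNNNNNCC on either strand, a loose form of the site that NF-kB binds, and every ATAAAAG, which resembles the box that binds the TATA-binding protein. The spans are chr14:17479322-17479431 for Cxcl1, chr14:17467256-17467365 for Cxcl2 and chr14:17596418-17596527 for Cxcl6.
Cxcl1: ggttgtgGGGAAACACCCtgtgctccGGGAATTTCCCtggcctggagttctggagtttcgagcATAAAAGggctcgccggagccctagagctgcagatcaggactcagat
Cxcl2: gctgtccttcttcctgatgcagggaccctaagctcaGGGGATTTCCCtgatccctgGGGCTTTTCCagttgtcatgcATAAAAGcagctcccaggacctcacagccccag
Cxcl6: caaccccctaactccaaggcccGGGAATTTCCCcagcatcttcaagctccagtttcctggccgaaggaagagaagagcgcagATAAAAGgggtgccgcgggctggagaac

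Promoters of 6 of the 7 genes were in the RefSeq table, all but S100a8, and motifs were searched on both strands of the 250 bases before each start, after these promoters had been read. The first of the motifs below is the 10-base word that 2 of the chemokine promoters share within the loose pattern, and the second lets it vary where the closest word of Cxcl2 differs. The letters GGGAATTTCC occurred in 23 of 33469 promoters (0.0687%), among them Cxcl1 and Cxcl6. The wider GGGNATTTCC, which includes the former, occurred in 87 promoters (0.26%) and adds Cxcl2. The loose GGGNNNNNCC, which includes both, occurred in 42.3% of promoters and in 5 of the 6, all but S100a9. ATAAAAG occurred in 5.17% of promoters and in the 3 chemokine genes. TTNCNNAA, which resembles the site of C/EBP factors, occurred in 37.2% of promoters and in Cxcl2, Cxcl6, S100a9 and Lcn2. These matches describe letters only and are no evidence of binding.

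In the lungs of silica rats, 5 of the 7 genes rose against air, namely Cxcl1, Cxcl6, Cxcr2, S100a8 and S100a9. Fitted rises ran from 1.67-fold for Cxcr2 to 13.1-fold for Cxcl6, which had only 1 to 10 counts in an air library. Of all genes tested, 2.15% were called higher in that comparison. In combined rats 4 rose against air, namely Cxcl6, Cxcr2, S100a8 and S100a9, where 11.6% of all genes were called higher. On the same 24 libraries DESeq2 called 4 in silica and 3 in combined. Voom called all 7 in silica, Cxcl2 and Lcn2 included, and 6 in combined. No member passed the test in smoke rats against air, where 0.15% of all genes were called in either direction. That count of 0 came from edgeR, with 6 of 7 at an unadjusted p under 0.05, and it was also 0 with DESeq2 and with voom, with 6 and 4 at an unadjusted p under 0.05. The 3 comparisons with air share the same 6 control animals.

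**Figure D1:**
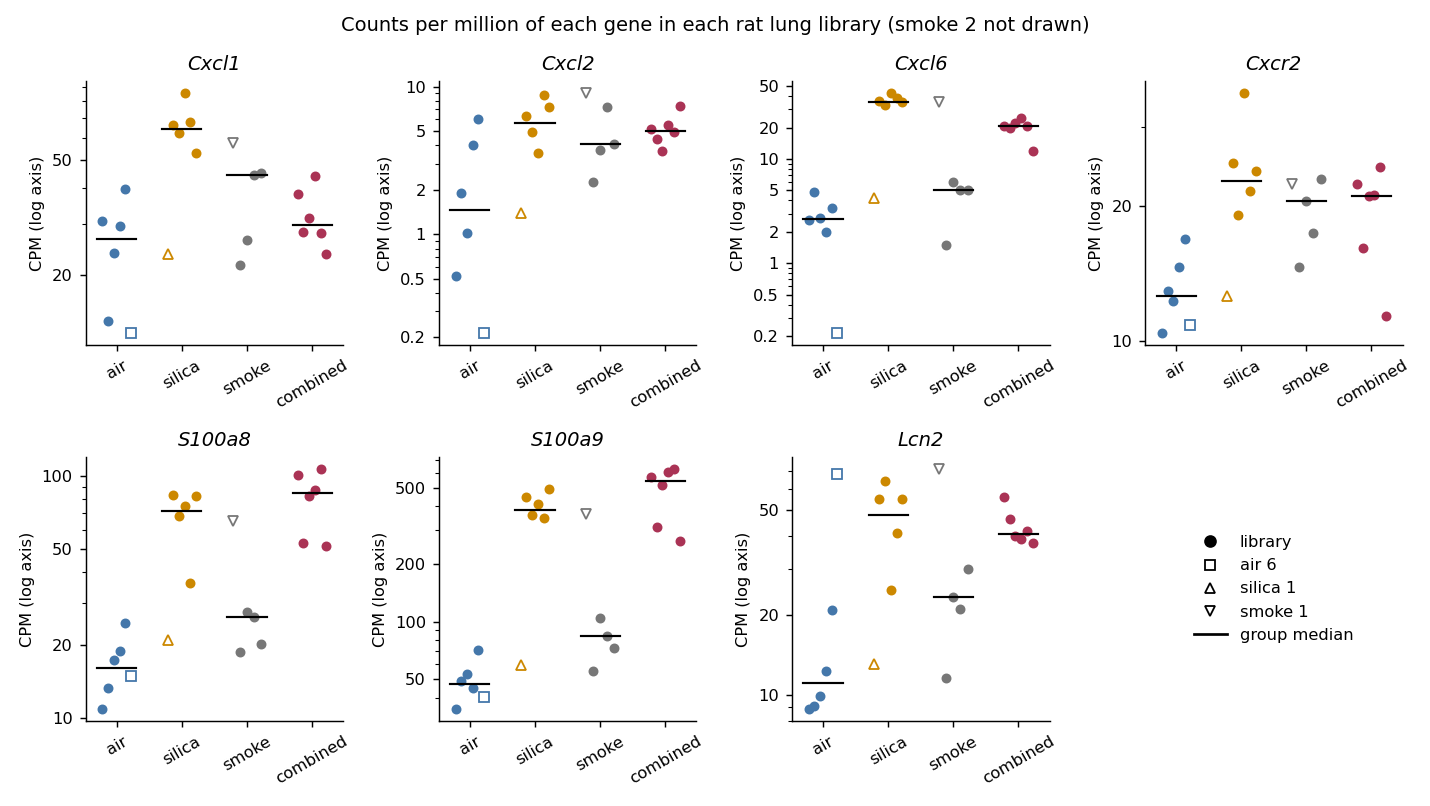
Level in CPM (log axes) of each of the 7 genes in 23 lung libraries by group, 1 point a library, with a line at the group median; smoke 2 is not drawn and air 6, silica 1 and smoke 1 have their own symbols. For Cxcl6, S100a8 and S100a9 every combined library lies above every air library, as for 5.37% of all genes tested. Silica 1 lies near the air libraries for S100a9 at 59.2 CPM.

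Cxcl6, the chemokine known in older rat annotation as Cxcl5 (gene 60665), had the largest fitted rise of the ligands. It stood between 0.213 and 4.79 CPM in air, with a median of 2.67 CPM. These air values rest on 1 to 10 counts a library and 39 counts in all, so the size of the fitted rise is uncertain. Silica libraries ran from 4.20 CPM to 42.8 CPM with a median of 35.3 CPM, and combined libraries from 11.9 CPM to 24.9 CPM with a median of 20.6 CPM. In smoke the range was 1.5 CPM to 35.1 CPM with a median of 5.09 CPM. Silica 1 held the 4.20 CPM, inside the air range, where the other 5 silica libraries held at least 33.2 CPM. Smoke 1 held the 35.1 CPM, where the other smoke libraries drawn held at most 5.96 CPM. The log2 fold change was 3.71 ± 0.56 (standard error) in silica against air (adjusted p = 4.18e-04), 3.11 ± 0.57 in combined against air (adjusted p = 2.65e-04), and 2.29 ± 0.63 in smoke against air (adjusted p = 0.219). Without smoke 1 alone the smoke value was 0.88 (adjusted p = 0.815), without smoke 2 alone it was 2.29 (adjusted p = 0.216), and in the fit of 21 libraries it was 0.88 (adjusted p = 0.557). Fitted levels ran silica, combined, smoke, air from high to low, and no neighbouring pair in that order passed the test.

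Cxcl1 (gene 81503), a major neutrophil attractant of the rat, stood between 12.6 and 39.7 CPM in air with a median of 26.8 CPM. It ran from 23.8 to 85.6 CPM in silica with a median of 64.3 CPM. Smoke libraries lay between 21.7 and 57.2 CPM with a median of 44.3 CPM, and combined libraries between 23.8 and 44.2 CPM with a median of 29.9 CPM. The 23.8 CPM in silica was silica 1, and the other 5 silica libraries, at 52.8 CPM or more, stood above every air and every combined library. With silica 1 left out, 3% of all genes tested stood so against air and 0.826% against combined. Against air the log2 change was 1.24 ± 0.26 in silica (adjusted p = 0.00954), 0.65 ± 0.28 in smoke (adjusted p = 0.496) and 0.41 ± 0.27 in combined (adjusted p = 0.301). The silica call was lost when only silica and air libraries were fitted (adjusted p = 0.0507). Fitted levels ran silica, smoke, combined, air, and neighbours in that order did not pass the test.

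Cxcl2 (gene 114105), a related ligand that macrophages release early, was the least well measured of the ligands, with 1 to 29 counts in a library outside smoke 2. Air libraries lay between 0.213 and 5.99 CPM with a median of 1.47 CPM. Silica libraries lay between 1.40 and 8.70 CPM with a median of 5.62 CPM. Combined libraries lay between 3.68 and 7.43 CPM with a median of 5.01 CPM, and smoke libraries between 2.25 and 9.04 CPM with a median of 4.07 CPM. All 4 groups overlapped in range. The log2 differences from air were 1.42 ± 0.48 in silica (adjusted p = 0.0936), 1.23 ± 0.49 in smoke (adjusted p = 0.462) and 1.23 ± 0.48 in combined (adjusted p = 0.0610). Air 5 held the 5.99 CPM. Without it the differences were 1.99 in silica (adjusted p = 0.0183) and 1.81 in combined (adjusted p = 0.00788), both past the threshold. Air 5 was singled out for its high Cxcl2, so leaving it out widens the difference from air. Of the alternative fits, 5 of 30 called Cxcl2 in silica and 5 of 31 in combined.

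Cxcr2 (gene 29385), the receptor through which neutrophils answer these ligands, stood between 10.4 and 16.9 CPM in air with a median of 12.6 CPM. Silica libraries ran from 12.6 to 35.7 CPM with a median of 22.8 CPM, and combined libraries from 11.4 to 24.4 CPM with a median of 21.1 CPM. Smoke libraries ran from 14.6 to 22.9 CPM with a median of 20.5 CPM. Silica 1 and combined 6 were the libraries of their groups that fell inside the air range, together with combined 2 at 16.1 CPM. The log2 change against air was 0.74 ± 0.19 in silica (adjusted p = 0.0291), 0.63 ± 0.19 in combined (adjusted p = 0.0154) and 0.60 ± 0.19 in smoke (adjusted p = 0.295). The silica call was lost with DESeq2 (adjusted p = 0.113) and when any 1 of air 1, 3 or 6 or silica 2, 3, 5 or 6 was left out (adjusted p 0.0513 to 0.0896). The combined call was lost with DESeq2 (adjusted p = 0.0827). Cxcr1, the neighbouring receptor gene, had log2 differences from air of -0.33 ± 0.29 in silica (adjusted p = 0.587) and -0.19 ± 0.28 in combined (adjusted p = 0.686).

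S100a9 (gene 94195), the larger calprotectin subunit, stood between 34.9 and 70.8 CPM in air with a median of 46.9 CPM. Combined libraries ran from 264 to 630.2 CPM with a median of 544 CPM, all above air, as were 5.37% of all genes tested. Silica libraries ran from 59.2 to 493 CPM with a median of 385 CPM. The 59.2 CPM was silica 1, and the other 5 silica libraries held at least 348 CPM. In smoke the range was 55.4 to 365 CPM with a median of 84.3 CPM, and smoke 1 held the 365 CPM against at most 104 CPM in the others drawn. The log2 change against air was 3.35 ± 0.40 in combined (10.2-fold, adjusted p = 1.79e-06), 2.88 ± 0.40 in silica (7.34-fold, adjusted p = 3.17e-04) and 1.52 ± 0.41 in smoke (adjusted p = 0.214). Without silica 1 the smoke difference passed (1.53, adjusted p = 0.0412), and in the fit of 21 libraries it was 0.70 (adjusted p = 0.294).

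S100a8 (gene 116547), its partner and neighbour on chromosome 2, stood between 10.9 and 24.7 CPM in air with a median of 16.2 CPM. Combined libraries ran from 51.5 to 107 CPM with a median of 85.0 CPM, all above air, as were 5.37% of all genes tested. Silica libraries ran from 21.0 to 83.2 CPM with a median of 71.5 CPM, with silica 1 the lowest and inside the air range. Smoke libraries ran from 18.7 to 64.9 CPM with a median of 26.2 CPM, with smoke 1 the highest. Against air the log2 change was 2.29 ± 0.30 in combined (adjusted p = 5.35e-06), 1.82 ± 0.32 in silica (adjusted p = 0.00174) and 0.97 ± 0.34 in smoke (adjusted p = 0.356). Both subunits had fitted levels in the order combined, silica, smoke, air. Combined and silica did not pass the test for either of them, nor did silica and smoke.

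The subunits did not keep 1 proportion. For each S100a8 count there were 2.37 to 3.64 S100a9 counts in air libraries (median 2.95) and 5.13 to 6.88 in combined libraries (median 5.90). Silica 1 had a ratio of 2.82, within the air range, and the other silica libraries had 5.29 to 9.58, with silica 5 the highest. Smoke 1 had 5.63 and smoke 3 to 6 had 2.96 to 3.77. The ratio is of raw counts of genes of different length, so it compares libraries and not the amounts of the 2 transcripts, and no test was made on it.

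**Figure D2:**
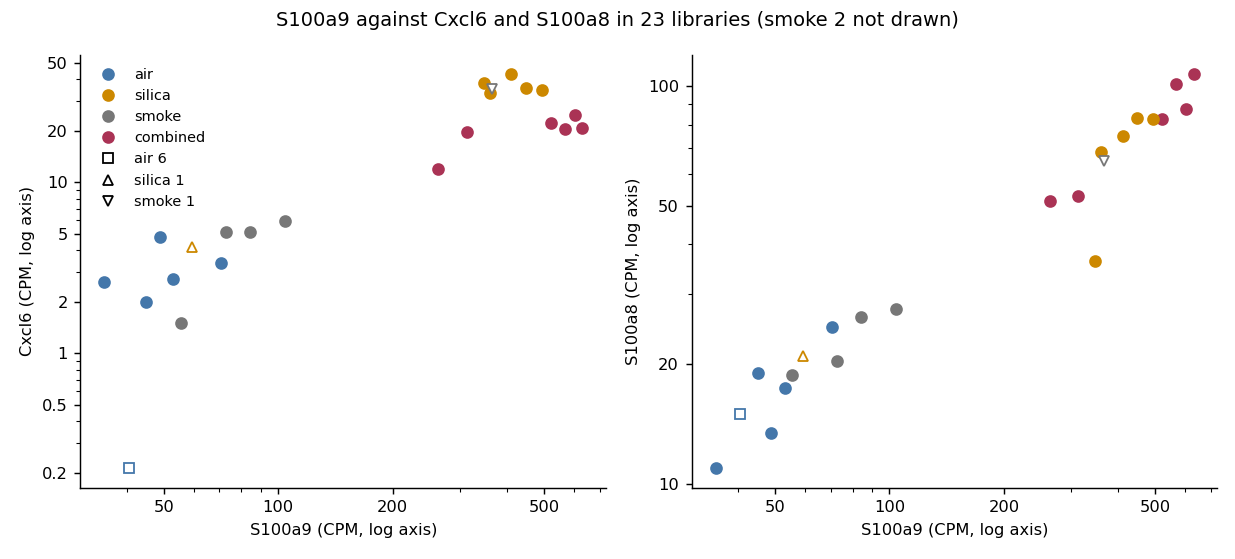
S100a9 (horizontal, CPM, log axis) against Cxcl6 (left) and S100a8 (right, vertical, CPM, log axes) in 23 lung libraries coloured by group, 1 point a library, with smoke 2 not drawn. The 6 combined libraries hold less Cxcl6 (11.9 to 24.9 CPM) than the 5 silica libraries other than silica 1 (33.2 to 42.8 CPM). S100a9 overlaps between them, and smoke 1 lies among those silica libraries. With silica 1 left out, every combined library lies below every silica library for 0.826% of all genes tested.

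Lcn2 (gene 170496) stood between 8.85 and 21.0 CPM in 5 air libraries and at 68.3 CPM in air 6. Silica libraries ran from 13.1 to 64.5 CPM with a median of 48.1 CPM. Combined libraries ran from 37.6 to 56.1 CPM with a median of 40.6 CPM, all above the 5 lower air libraries, as were 6.55% of all genes tested. Smoke libraries ran from 11.6 to 71.6 CPM with a median of 23.5 CPM, with smoke 1 the highest. With all libraries the log2 difference from air was 0.93 ± 0.42 in silica (adjusted p = 0.224), 0.92 ± 0.41 in combined (adjusted p = 0.102) and 0.46 ± 0.43 in smoke (adjusted p = 0.846). Without air 6 the differences were 1.85 in silica (adjusted p = 0.00542) and 1.85 in combined (adjusted p = 3.57e-04), both past the threshold. Air 6 held the highest Lcn2 of the air libraries, so leaving it out widens the difference from air. It also stood apart from the other air libraries beyond the members, as given under processing. With air 6 kept, voom also called Lcn2 in silica (1.82, adjusted p = 0.00427) and in combined (1.76, adjusted p = 4.60e-04), and the fit of 21 libraries called it in silica (1.12, adjusted p = 0.0407). In air 6 the other members were not raised, with S100a9 at 40.5 CPM and Cxcl6 at 0.213 CPM, and its neutrophil list summed to 222 CPM in an air range of 211 to 296 CPM. In the fit of 21 libraries, the smoke difference turned to -0.17.

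**Figure D3:**
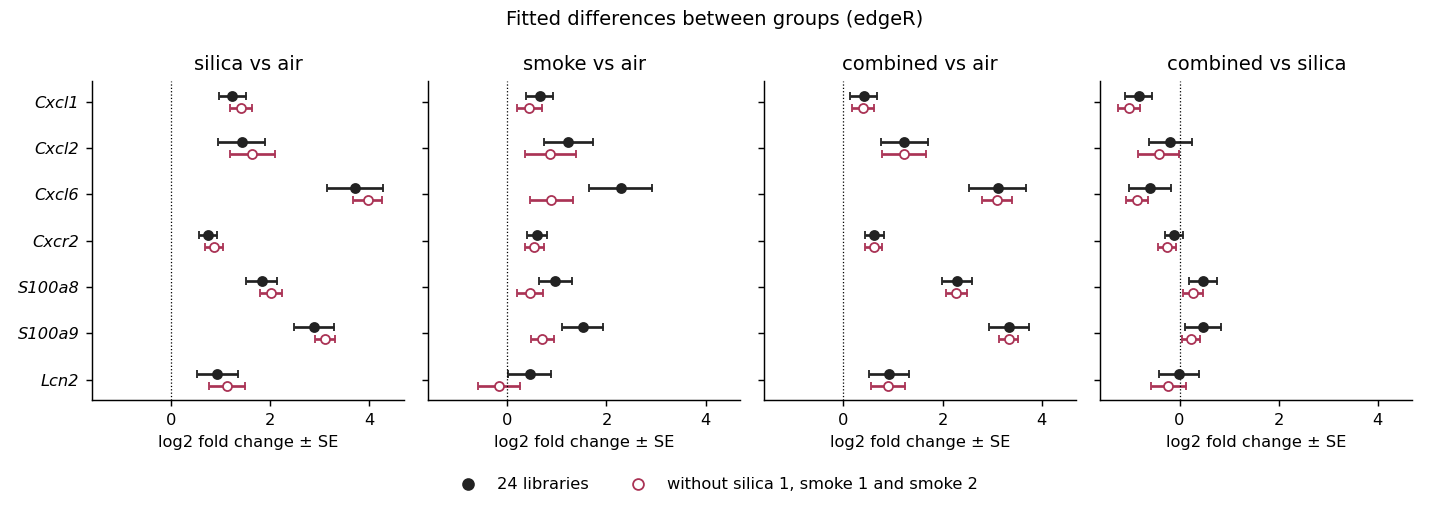
Fitted log2 fold change with its standard error (horizontal) of each of the 7 genes in silica, smoke and combined against air and in combined against silica. Filled points come from all 24 libraries and open points from the fit of 21 libraries, and in smoke the Cxcl6 value moves from 2.29 to 0.88 between the fits.

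Without silica 1, smoke 1 and smoke 2, all 7 genes passed in silica against air, where 5.96% of all genes were called higher. Those added were Cxcl2 (1.64, adjusted p = 0.0174) and Lcn2 (1.12, adjusted p = 0.0407). In combined against air 5 passed, with Cxcl2 added (1.22, adjusted p = 0.0413) and 12.1% of all genes called higher. Smoke against air stayed at 0 of 7 with edgeR, where 0.0951% were called higher. In these libraries Cxcl1, Cxcl6, Cxcr2, S100a8 and S100a9 were higher in each silica library than in each air library, as were 3% of all genes tested. With silica 1 kept, no member separated silica from air, as 0.293% of all genes did, and Cxcl6, S100a8 and S100a9 separated combined from air, as did 5.37% of all genes. Silica 1 and smoke 1 were doubted from genes that differ between these groups, so separation after leaving them out is no sign of stability.

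Smoke added to silica was read from combined against silica. With all 24 libraries no member passed, where 0.128% of all genes were called lower and 0.12% higher. This count of 0 was the same with DESeq2 and voom, and each of the 3 tools had 1 member, Cxcl1, at an unadjusted p under 0.05. Cxcl1 had a log2 difference of -0.83 ± 0.26 (95% interval -1.38 to -0.28, adjusted p = 0.168), and Cxcl6 of -0.60 ± 0.42 (adjusted p = 0.576). The values for S100a8 (0.47 ± 0.28, adjusted p = 0.484) and S100a9 (0.47 ± 0.36, adjusted p = 0.615) had the opposite sign. Cxcl2 (-0.19 ± 0.43) and Cxcr2 (-0.12 ± 0.19) differed by less than their standard errors, and Lcn2 stood at -0.01 ± 0.41. In the fit of 21 libraries Cxcl1 fell by 1.01 ± 0.22 on the log2 scale in combined against silica (adjusted p = 0.0437), where 0.124% of all genes were called lower. Cxcl6 stood at -0.86 ± 0.22 there (adjusted p = 0.117), and S100a8 and S100a9 at 0.26 and 0.23. Without air 6 as well, Cxcl1 (-1.02, adjusted p = 0.00198) and Cxcl6 (-0.86, adjusted p = 0.00378) both passed, where 0.37% of all genes were called lower. With silica 1 left out, every combined library was below every silica library for Cxcl1 and Cxcl6, as were 0.826% of all genes. With all libraries both genes overlapped between these groups. Silica 1 was the lowest silica library for both genes and was doubted partly on Cxcl6. Leaving it out raises the silica side, so this separation and the calls without it are no sign of stability.

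Count ratios show the same libraries another way. For each S100a9 count there were 0.0705 to 0.11 Cxcl6 counts in the 6 silica libraries (median 0.0858), silica 1 included, and 0.0329 to 0.0630 in the 6 combined libraries (median 0.0418), with no overlap. Air libraries spread over both, from 0.00526 to 0.0980. For each S100a9 count there were 0.107 to 0.402 Cxcl1 counts in silica, 0.0446 to 0.0901 in combined, 0.157 to 0.622 in smoke and 0.284 to 0.881 in air. The ratio of Cxcl6 to Cxcl1 counts did overlap, at 0.5 to 0.739 in combined and 0.5 to 0.658 in silica without silica 1, which had 0.176. The ratios were picked after the values had been seen and carry no test. How many other gene pairs separate these groups was not counted. S100a9 had its higher fitted level in combined, and Cxcl6 and Cxcl1 had theirs in silica, so dividing by S100a9 widens the gap.

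Silica added to smoke was read from combined against smoke. S100a8 (1.32 ± 0.30, adjusted p = 0.00467) and S100a9 (1.82 ± 0.39, adjusted p = 0.00330) rose, where 7.34% of all genes were called higher. The S100a8 call was lost with DESeq2 (adjusted p = 0.0521). Cxcl6 had 0.82 ± 0.47 (adjusted p = 0.262) and passed without smoke 1 (2.24, adjusted p = 0.00120), where 9.49% of all genes were called higher. Smoke 1 was doubted partly on its high Cxcl6. Leaving it out lowers the smoke side, so this call is no sign of stability. Cxcl1 had -0.24 ± 0.28 (adjusted p = 0.612) and Cxcr2 0.03 ± 0.19 (adjusted p = 0.958).

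Silica against smoke gave 0 of 7 calls with edgeR, with 4 members at an unadjusted p under 0.05, where 0.195% of all genes were called in either direction. DESeq2 also gave 0, with 3 at an unadjusted p under 0.05, and voom gave 3. Leaving out silica 1 alone or smoke 1 alone gave 3 calls, those of Cxcl6, S100a8 and S100a9, where 1.74% and 1.53% of all genes were called higher. In the fit of 21 libraries these 3 and Cxcl1 were higher in silica, where 4.29% of all genes were called higher. The log2 differences were 3.08, 1.56, 2.40 and 0.97. Silica 1 and smoke 1 were doubted partly on Cxcl6, S100a8 and S100a9. Leaving them out widens the differences of these genes, so the added calls are no sign of stability.

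In the interaction, the log2 change with both exposures was set against the log2 changes of silica alone and smoke alone added up. No member passed with edgeR, and 0% of all genes were called. Cxcl1 (-1.48 ± 0.38, adjusted p = 0.334) and Cxcl6 (-2.88 ± 0.76, adjusted p = 0.339) had the smallest p of the 7 genes. All 7 estimates were below 0, and that of Lcn2 (-0.46 ± 0.59) was 0.16 without smoke 1. At an unadjusted p under 0.05 stood 4 members with edgeR, 3 with DESeq2 and 3 with voom, and none of the 3 tools called a member. The Cxcl1 value was -1.46 (adjusted p = 0.132) in the fit of 21 libraries and -1.26 (adjusted p = 0.0601) without air 6 as well. The Cxcl6 value was -1.74 (adjusted p = 0.244) and -1.36 (adjusted p = 0.155) in these fits. In the fit of 21 libraries Cxcl2 stood at -1.28, Cxcr2 at -0.80, S100a8 at -0.19, S100a9 at -0.47 and Lcn2 at -0.06.

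Some markers of neutrophils moved in the same groups, and their part in the members' values was not tested. Of 30 listed genes of neutrophil granules and surface, 16 were tested. In silica 5 rose against air and none fell, with a median log2 change of 0.70 over the 16 against -0.0044 over all genes tested. They were Il1r2, a decoy receptor for interleukin 1 (2.51), Cd177 (2.01), Itgam, the alpha chain of Mac-1 (1.19), the lectin receptor Clec4d (0.86) and Selplg, a selectin ligand (0.60). DESeq2 called 3 of the 16 in silica and voom 10. In combined 11 rose and none fell, led by Il1r2 (2.79), Cd177 (2.47), Itgam (1.79) and the lectin receptor Clec4e (1.56), with a median of 0.78. The genes not called numbered 11 in silica and 5 in combined. Among them Cxcr1 had values below 0 in both, as given above. In smoke none of the 16 passed with edgeR, with 5 at an unadjusted p under 0.05, and the median was 0.34. DESeq2 called 0 in smoke and voom 1. Combined against silica gave 0 of 16 calls with edgeR, DESeq2 and voom, with 2, 1 and 3 at an unadjusted p under 0.05. In the fit of 21 libraries, 11 of 18 rose in silica and 11 of 18 in combined, with 0 in smoke.

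The summed level of that list was 211 to 296 CPM in air and 228 to 509.8 CPM in silica. Silica 1 was the lowest of the silica libraries and silica 4 the highest. The level was 254 to 458 CPM in smoke with smoke 1 the highest, and 432 to 489.6 CPM in combined. Some granule genes of neutrophil precursors were near absent in all groups: Mpo, Elane and Ctsg had at most 1 count in a library, and lactoferrin (Ltf) had 0 in all 24. Other listed genes too low to test reached more, with at most 3 counts for Prtn3, 7 for Camp, 8 for Ngp, 13 for Pglyrp1 and 17 for Mmp9. Macrophage markers moved too, with 4 of 11 tested higher in silica and 5 higher and 1 lower in combined. In the smoke group none was higher and 1 of the 11 was lower, also in the fit of 21 libraries. DESeq2 called 2 of the 11 in silica, and DESeq2 and voom each called 1 in the smoke group. Their summed level was 634 to 1045 CPM in air, 801 to 1134 CPM in silica, 714 to 1010.4 CPM in smoke and 1086 to 1216 CPM in combined.

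**Figure D4:**
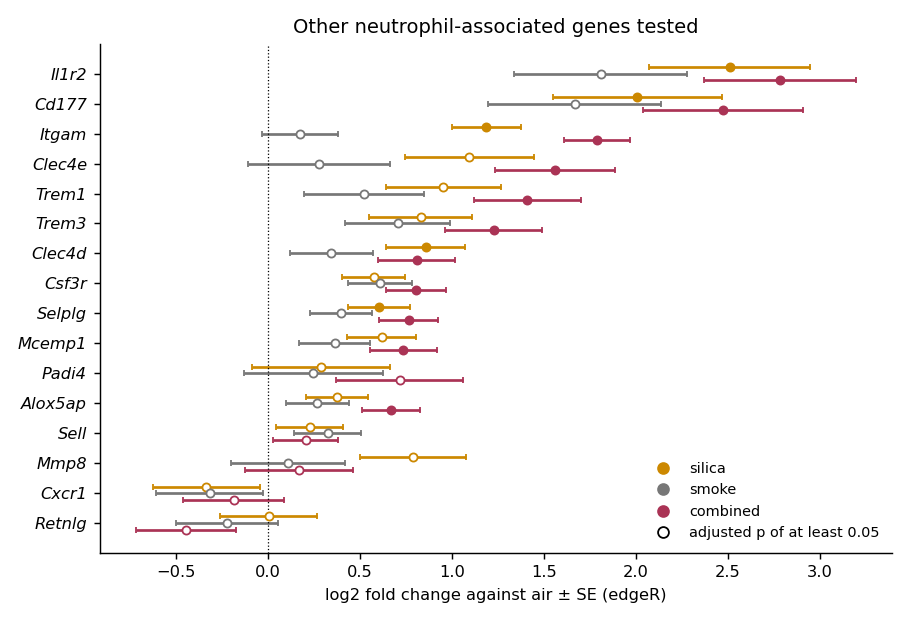
Log2 fold change against air with its standard error (horizontal, edgeR) of the 16 tested neutrophil genes other than the 7 members, in silica, smoke and combined. Filled points passed an adjusted p of 0.05, which 5 genes did in silica, none in smoke and 11 in combined, and Il1r2 and Cd177 have the largest values in each group.

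Other genes of the chemokine pathway moved in part. Of 21 listed, 15 were tested, and 2 rose in silica, 1 in smoke and 6 in combined, where 1 fell. Zc3h12a, an RNase that degrades cytokine transcripts, rose in all 3 (1.16 in silica, 0.98 in smoke and 0.96 in combined), and in smoke DESeq2 called 0 of the 15. In silica 5 of 15 rose in the fit of 21 libraries and voom called 4. Il1b rose in silica (0.91 ± 0.18, adjusted p = 0.00430) and in combined (0.80). Cxcl3, another ligand of Cxcr2 in the same cluster, rose in combined (0.71 ± 0.20, adjusted p = 0.00975) and had 0.64 ± 0.20 in silica (adjusted p = 0.0668). Its group medians were 819.9 CPM in air, 1322 CPM in silica, 886 CPM in smoke and 1268 CPM in combined. Csf3r, the receptor for granulocyte colony-stimulating factor, which is in the neutrophil list too, rose in combined (0.80), as did the adaptor Myd88 (0.62) and the interleukin 17 receptor Il17ra (0.27). The 1 that fell was Traf3ip2, an adaptor of that receptor (-0.33). Some listed cytokines, unlike Il1b, were at or near the floor: Il17a and Il17f had 0 counts in all 24 libraries, Csf3 at most 1 and Tnf at most 5. The median log2 change of the 15 was 0.25 in silica, 0.12 in smoke and 0.12 in combined.

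None of 13 tested genes in a list of other S100 genes and calprotectin receptors passed with edgeR in silica or in smoke, with 5 and 0 at an unadjusted p under 0.05. DESeq2 also called 0 in both, and voom called 2 in silica and 0 in smoke. In the fit of 21 libraries, 5 of the 13 rose and 1 fell in silica, with 0 in smoke. Tlr4 had a log2 difference from air of 0.08 ± 0.12 in silica (adjusted p = 0.773) and 0.06 ± 0.11 in combined (adjusted p = 0.772). Ager, the receptor for advanced glycation end products and a marker of alveolar type 1 cells, had -0.24 ± 0.16 in silica (adjusted p = 0.467) and -0.25 ± 0.16 in combined (adjusted p = 0.288). In combined 5 of the 13 rose: the sialic acid lectin Cd33 (1.41), S100a10 (0.67), S100a11 (0.66), the scavenger receptor Cd36 (0.55) and S100g (0.52). The list's median was 0.18 in silica, -0.01 in smoke and 0.13 in combined.

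Of 7 tested partners of Lcn2 and iron genes, 1 rose in silica, none in smoke and 3 in combined, with medians of 0.26, 0.06 and 0.60. The 0 in smoke was the same with DESeq2 and voom, with 0 at an unadjusted p under 0.05 in each tool. Lrp2, or megalin, which takes up Lcn2, rose in combined (0.72), as did the transferrin receptor Tfrc (0.60) and the metal transporter Slc11a1 (0.81). Tfrc was the 1 that rose in silica (0.44, adjusted p = 0.0281), where DESeq2 called 0 of the 7, and in the fit of 21 libraries 2 of 8 rose. Slc22a17, the other known Lcn2 receptor, had -0.01 in combined (adjusted p = 0.991). Of 9 tested genes of airway defence, the epithelial setting in which Lcn2 is also made, 2 rose in silica, none in smoke and 7 in combined. The silica count was 1 with DESeq2, 5 with voom and 6 in the fit of 21 libraries. In smoke 1 had an unadjusted p under 0.05 with edgeR, and DESeq2 called 1 and voom 0. Those that rose include Bpifb1 (3.17 in combined), the oxidase Duox1 (1.94 in combined and 0.79 in silica) and the protease inhibitor Slpi (1.41 in combined). The medians were 0.74, 0.25 and 1.07, and whether these epithelial genes bear on Lcn2 was not tested.

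Across the 22 libraries with at least 1000000 counts, S100a8 and S100a9 had a Spearman correlation of 0.98, and of 0.91 for deviations from the group means. Cxcl6 and S100a9 had 0.85 and 0.82, Cxcr2 and S100a9 0.82 and 0.80. Cxcl1 and S100a8 had 0.53, and Lcn2 had 0.49 to 0.66 with the other members. These points share groups and exposure, and silica 1 and smoke 1 are among them, so the values are descriptions with no test. The genes outside the 7 most like each member were Siglec8, Bcap29 and Slc16a6 for S100a8 (0.94, 0.92 and 0.91), and Slc16a6, Siglec8 and Erich3 for S100a9 (0.93, 0.92 and 0.92). For Cxcl6 they were Angptl1, the chemokine Cx3cl1 and the integrin subunit Itgb8 (0.92, 0.90 and 0.88). Cxcl1 was closest to Foxa2, Plp2 and B3galnt1 (0.82, 0.81 and 0.80), and Lcn2 to the complement gene C7, Spdef and Ramp3 (0.87, 0.82 and 0.81). For Cxcr2 the nearest named genes were Klra1 and Zc3h12a (0.80 and 0.78).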

How the data were processed

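For 24 lung libraries the authors deposited raw read counts, as whole numbers, in 1 table of genes. Per the submitters' processing notes, reads passed through HTSeq 0.11.2, SAMtools 1.8, HISAT2 2.1.0, Trimmomatic 0.35, bcl2fastq 2.19 and Cufflinks, with no order or role stated. Per the labels' protocols, total RNA was depleted of ribosomal RNA and made into stranded libraries. For the genome build, the annotation and the strand setting, nothing is given in the sources used here, so antisense and overlapping genes are uncertain. Of 30069 lines, 26 repeated another line's symbol and counts and were removed, which left 30043 genes.

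edgeR 4.0.16 (R 4.3.3) was used for the tests. filterByExpr, at its minimum count of 10, kept 13322 genes. After TMM scaling, all libraries entered 1 quasi-likelihood fit of the 4 group means, which left 20 residual degrees of freedom. Tests were two-sided, p-values were adjusted by Benjamini-Hochberg over all genes in each of 7 comparisons, and an adjusted p under 0.05 was called. The standard error of a log2 fold change is its size over the root of the F statistic. Each fit was tested on simulated data. CPM is a count over the library's own total. At the median depth 3 counts equal 1.28 CPM. Libraries were treated as separate animals per the labels, which name no batch. Pairs of libraries within a group had a chi-square of at least 1.80 per degree of freedom, so none agreed within sampling noise. In air, pairs with air 6, the deepest library, stood at 14.7 to 24.4, and the other air pairs at 1.91 to 8.42. Pairs with smoke 2 stood at 33.1 to 84.6.

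The members, the lists, the model and the alternatives were chosen with earlier results of these data known. Alternatives were DESeq2 1.42.0, RLE scaling, voom with quality weights (limma 3.58.1), no filter, fits of only the libraries compared, and leaving out libraries. Named were the 7 members, the 4 called genes with the largest change and the 2 most abundant genes not called of each list, and the 3 genes most like each member by Spearman correlation of log2 CPM (prior count 2). Some were left out for length, and Csf3r, Myd88, Il17ra, Traf3ip2, Selplg, S100g, Cxcr1, Il17a, Il17f, Csf3, Tnf, Mpo, Elane, Ctsg, Ltf, Tlr4, Slc22a17 and Cxcl3 in silica, and the called lung identity genes past the first 4, were named after their values were seen. So were Prtn3, Camp, Ngp, Pglyrp1 and Mmp9. The lists were other chemokine pathway genes, other S100 genes and calprotectin receptors, Lcn2 partners and iron genes, airway defence, neutrophil, macrophage, airway secretory, lung identity, squamous and other tissue, and erythroid genes. Of 7 airway secretory genes, 1 fell in combined against air with edgeR, where DESeq2 called 0 and the fit of 21 libraries 2. Of 12 squamous and other tissue genes, 2 were tested, and Krt5 and Col2a1 had 0 counts in all libraries. Of 6 erythroid genes, 2 were called higher in smoke than in air by edgeR with smoke 2 kept, and 0 by DESeq2, by voom or without silica 1, smoke 1 and smoke 2.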

Additional observations from a re-analysis of the deposited data

Results flagged for a closer look

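In a group of 6 libraries, a single one was set far apart from the rest for 5 of 28 gene and group combinations, by the gap to its nearest neighbour as a share of the group's range. Chance alone marks about 1 in 20 such groups. Cxcl6 in silica 1 stood at 4.20 CPM where the other silica libraries held at least 33.2 CPM, and S100a9 in silica 1 stood at 59.2 CPM where the others held at least 348 CPM. Cxcl6 in combined 6 stood at 11.9 CPM where the others held at least 19.7 CPM. Cxcl1 and Cxcr2 in smoke 2 had 0 counts, in a library where 3 counts equal 139 CPM, so neither value can be set against the other smoke libraries.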

How the results depend on the processing

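Each of 49 gene results was recomputed under up to 31 alternatives, 24 of which leave out 1 library. Of 1509 recomputed values, 1427 kept their direction and their side of the threshold, 12 lost and 45 gained a call, and 25 changed sign, and 42 of the 49 results kept their sign in all of them. Members called, silica against air: 5, 3 with only the libraries compared, 4 with DESeq2, 7 with voom and 7 without the 3 or the 4 libraries named below, 4 to 6 with 1 library left out. Smoke against air: 0, with a range of 0 to 1. Combined against air: 4, 3 with DESeq2, 6 with voom, 5 without the 3 or the 4 libraries, with a range of 4 to 5 with 1 library left out. Combined against silica: 0, 1 without silica 1, smoke 1 and smoke 2, 2 without air 6 as well, and 0 with 1 library left out. Combined against smoke: 2, 1 with DESeq2, 4 with voom, 4 without those 4 libraries, with a range of 2 to 3. Silica against smoke: 0, 3 with voom, 4 without the 3 libraries, 5 without the 4, with a range of 0 to 3. Interaction: 0 throughout. Sign changes came in these log2 values, given first as the range with 1 library left out. Lcn2 in smoke against air ran -0.16 (without smoke 1) to 1.39 (without air 6), and was -0.17 without the 3 libraries. Lcn2 in combined against silica ran -0.23 to 0.13 and was 0.030 with DESeq2. Cxcl2 in combined against smoke ran -0.20 to 0.38 and was -0.0099 with RLE scaling, -0.031 with DESeq2 and -0.0021 with only the libraries compared. Cxcl2 ran -0.42 to 0.067 in combined against silica and -0.057 to 0.56 in silica against smoke. Cxcr2 in combined against smoke ran -0.065 to 0.13, and the Lcn2 interaction -1.40 (without air 6) to 0.16 (without smoke 1). The cause was not tested. With 1 library left out, counts of all genes called higher ran 111 to 716 for silica against air (287 with all libraries), 4 to 25 for smoke against air (13), 1227 to 1682 for combined against air (1546), 9 to 56 for combined against silica (16), 581 to 1263 for combined against smoke (978) and 0 to 236 for silica against smoke (13). All genes called either way numbered 422, 20, 2987, 33, 1720 and 26 with edgeR, 189, 11, 1665, 21, 796 and 12 with DESeq2, and 909, 72, 3698, 116, 3368 and 714 with voom, in the same order. No paired analysis was possible because the labels give no replicate numbers shared between groups.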
